A study of Mus musculus with 4 samples.

Results

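Among the regions of open chromatin that were higher in E9.5 hearts lacking SMYD1 than in wild type (WT) hearts, 738 of 25745 lay mostly in masked sequence. They are the peaks in which more than 50% of the bases, at least 75, are written in lower case in the GRCm38 (mm10) genome sequence, the usual way of marking interspersed and simple repeats, and they are called masked gained peaks here. They made up 2.87% of the gained peaks (95% exact Clopper-Pearson interval 2.67 to 3.08). The other 25007 gained peaks, of which 16532 hold no masked base, were set beside them, as were 52951 windows of the same width placed every 50 kb along the chromosomes (the grid). The rule used the sequence alone, so scores, distances and neighbouring genes were not used to choose the members.

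The assay was ATAC-seq, in which the Tn5 transposase cuts DNA that nucleosomes leave accessible. Hearts were whole E9.5 mouse embryonic hearts that were WT or Smyd1-KO, from a conventional null allele of Smyd1, a histone methyltransferase gene of heart and skeletal muscle. The null allele is not limited to a cell type, so every cell of a Smyd1-KO heart carries it, embryos of both sexes were used, and embryos without SMYD1 are known to die soon after this stage. Each genotype had 2 libraries, prepared from 40000 viable cells of 4 pooled hearts each. Because both libraries of a genotype were merged when peaks were listed, no value per library or spread between replicates can be given here, and the peaks of 1 merged list are not replicates. No p-value is given. Intervals cover counting error over peaks only. The score of a peak is the tag value that the peak finder gave for the merged Smyd1-KO libraries. A tag is an aligned read, but the scores move in steps of 0.5, so they are scaled values and not whole numbers of reads. The scale is not stated, and tags stands for this scaled value throughout. Depth per library is unknown from the lists.

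Interspersed repeats are copies of transposable elements that were inserted at many places of the genome, and simple repeats are runs of a short unit such as AC. In mammals most copies are kept silent by DNA and histone methylation, and some carry binding sites for transcription factors and act as enhancers or promoters. GATA factors, among them GATA4 in heart muscle, bind the letters AGATAA. TEAD factors, the DNA-binding partners of YAP, bind GGAATG, and SP1 binds the GC box GGGCGG found in many promoters.

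The sequences of 8 members are given here because the findings turn on them. The first 2 come from the largest group of members with like sequence (group 1, 215 members) and show in capitals the 12-base word held by more of its members than any other:
Gm44961 neighbour, chr8:4836728-4836876, plus strand: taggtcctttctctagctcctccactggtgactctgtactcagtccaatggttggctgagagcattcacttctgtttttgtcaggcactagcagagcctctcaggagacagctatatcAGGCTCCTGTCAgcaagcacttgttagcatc
Mir6909 neighbour, chr10:79519710-79519858, minus strand: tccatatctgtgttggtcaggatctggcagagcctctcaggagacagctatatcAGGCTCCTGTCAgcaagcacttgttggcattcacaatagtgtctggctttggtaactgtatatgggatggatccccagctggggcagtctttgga

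The next 3 come from group 2 (73 members) and were chosen for holding the pattern marked. In the whole group 34 members hold the GATA string, and 20 of 49 copies of the shared word in masked gained peaks have it at the marked place. Capitals mark the shared word of the group and, 6 bases after it, the GATA string AGATAA:
Gm44911 neighbour, chr8:7067696-7067844, minus strand: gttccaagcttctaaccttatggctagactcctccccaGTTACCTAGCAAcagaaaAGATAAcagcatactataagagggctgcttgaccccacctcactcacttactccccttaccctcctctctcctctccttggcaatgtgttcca
Gm48567 neighbour, chr13:81495632-81495780, minus strand: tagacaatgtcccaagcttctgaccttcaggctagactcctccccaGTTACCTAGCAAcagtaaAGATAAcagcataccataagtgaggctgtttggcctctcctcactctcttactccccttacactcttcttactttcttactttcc
Gm17824 neighbour, chr5:47548606-47548754, minus strand: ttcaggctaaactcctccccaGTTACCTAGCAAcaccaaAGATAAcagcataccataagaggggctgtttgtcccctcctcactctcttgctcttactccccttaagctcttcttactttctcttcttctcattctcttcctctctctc

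Tandem repeats of AC and of AG are shown by the highest-scoring members outside UTRs, with the longest unbroken run in capitals. The AC peak lies 22 bp from a TSS of Nr4a3, an orphan nuclear receptor gene, and the AG peak in an intron of Cald1, which encodes the actin-binding protein caldesmon:
Nr4a3 neighbour, chr4:48044983-48045131, plus strand: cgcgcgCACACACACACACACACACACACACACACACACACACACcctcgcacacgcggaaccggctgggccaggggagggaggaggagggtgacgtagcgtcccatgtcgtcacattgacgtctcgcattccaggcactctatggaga
Cald1 neighbour, chr6:34610115-34610263, plus strand: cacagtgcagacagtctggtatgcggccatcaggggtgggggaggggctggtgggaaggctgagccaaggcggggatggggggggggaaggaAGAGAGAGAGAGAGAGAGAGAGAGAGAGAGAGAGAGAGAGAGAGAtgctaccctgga

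The last is the highest-scoring member with few signs of a repeat other than the masking. Its masked bases, in capitals, form short C-rich stretches:
Dgkz neighbour, chr2:91984631-91984779, plus strand: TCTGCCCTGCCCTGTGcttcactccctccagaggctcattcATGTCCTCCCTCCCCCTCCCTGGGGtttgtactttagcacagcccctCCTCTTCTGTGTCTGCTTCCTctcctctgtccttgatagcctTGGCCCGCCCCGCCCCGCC

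The label of the members was first set beside the genome. How the bases were masked is not known, and if frequent words were masked, high copy numbers follow from the rule. Such numbers therefore do not tell interspersed repeats from other frequent words. A 20-base word that occurs at least 10 times on the 19 autosomes, X and Y was found in 713 of the 738 masked gained peaks (96.6%), against 9.56% of the other gained peaks and 97.7% of the masked grid windows. A word with at least 100 copies was found in 83.1% of members and in 3.76% of the other gained peaks. Only 24 members (3.25%) had neither such a word nor a tandem repeat with a unit of 1 to 6 bases. These 24 went in part against the label: their median score was 117.75 tags, their median GC content 59.7% and their masked runs short (median 53.5 bases). The masking itself was dense and finely divided. It covered 36.4% of the bases of the chromosomes, 50.8% of its runs were shorter than 30 bases, and 31% of grid windows were mostly masked. Likeness to the annotated B1_Mus2 element, a short interspersed element (SINE), was found in 13 members (1.76%), against 834 of 16414 masked grid windows (5.08%) and 6 of the other gained peaks. Of these 13 members, 3 also hold a short tandem run of 24 to 32 bases and are counted with the tandem repeats. One member, with 263.5 tags, matched an annotated small nuclear RNA gene and covers the TSS of Gm24859, a gene of that type. No member resembled the mitochondrial genome, an outcome that allows a share of up to 0.499%.

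Masked sequence was thus rarer in the gained list than in the genome at large. In the grid 31% of windows passed the same rule (interval 30.6 to 31.4), more than 10 times the share in the gained list. In the small WT-enriched list, 36 of 106 peaks passed it (34.0%, interval 25 to 43.8). Masked grid windows were more repeated than members. All 36-base words occur elsewhere in the genome for 25.8% of these windows and for 1.90% of members. The part of read placement in the gap between grid and gained list was not tested. The members themselves were mostly partly masked: 117 were masked from end to end, the median was 113 masked bases, and in 450 (61.0%) the longest masked run touching the peak was shorter than the peak. The median run was 111 bases (quartiles 68 and 230), against 270 bases around masked grid windows. Only 10 members lay in a run of 1000 bases or more, and the longest run was 8746 bases. At the threshold, the 9 peaks with 75 masked bases had a median score of 54.5 tags and the 17 peaks with 74 had 112 tags.

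**Figure D1:**
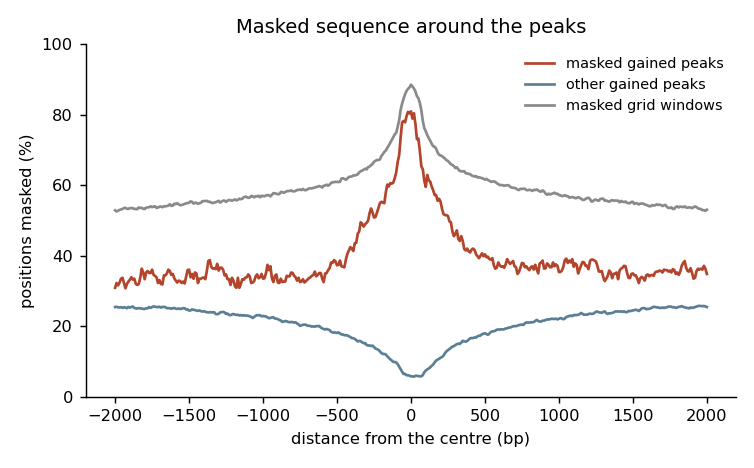
Share of positions that are masked (%, vertical axis) by distance from the centre (bp, horizontal axis) for masked gained peaks, other gained peaks and masked grid windows. In the masked gained peaks the share fell from 80.9% at the centre to 33.5% at 1000 bp toward lower coordinates. In the other gained peaks it was 5.77% at the centre and 22.9% at the same distance on that side.

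The masking was local to the peak. At the centre base, which the rule favours, 80.9% of the members were masked. At 200 bp on either side 55.3% of positions were masked, and at 1000 bp 33.5% and 35.4%, against 56.9% and 57.2% around masked grid windows. The surroundings of members were thus less masked than those of random masked windows and more masked than those of the other gained peaks (22.9% and 22.1%).

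Masked gained peaks had lower scores than the other gained peaks. The median score was 61.5 tags (quartiles 46 and 100, interval of the median 59.5 to 65), with a range from 28 to 930.5. The other gained peaks had a median of 188 tags (quartiles 84 and 418.5, interval 184 to 192.5). The ranges overlapped, but the upper quartile of the members lay below the median of the others. The share of masked peaks fell along the score. It was 10.2% in the lowest 10% of the list (262 of 2574 peaks) and 0.155% in the highest 10%, where 4 of 2575 peaks were masked, with 3.65% in the fourth and 1.05% in the sixth of the 10 bins. Scores rest on reads that had a position in the genome, and how the authors treated reads with several possible positions is not stated. The median member had 18% of its 36-base words repeated elsewhere, and the other gained peaks 0%. Among the 189 members with no repeated 36-base word the median score was 70 tags (interval 62 to 84.5), and among the 443 with over 10% repeated words it was 60.5 tags (interval 58 to 63). The part of read placement in the scores was not tested.

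**Figure D2:**
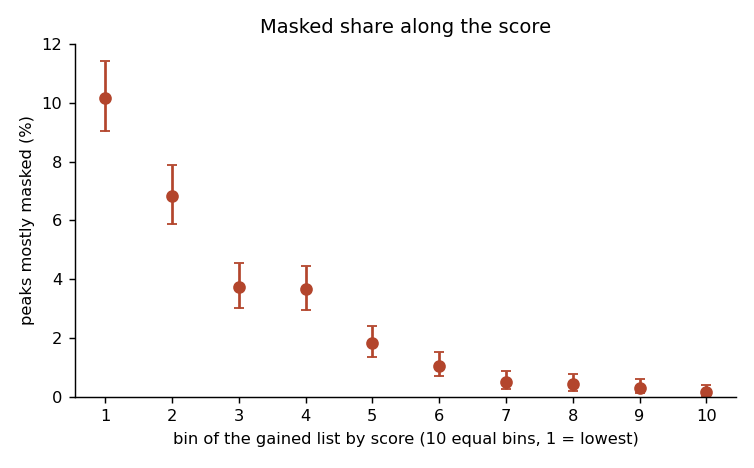
Share of gained peaks that are mostly masked (%, vertical axis) in 10 bins of equal size by score (horizontal axis, 1 is the lowest). Points are shares and bars are 95% exact intervals. The share is 10.2% in the lowest bin and 0.155% in the highest.

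The members lay farther from genes. The nearest transcription start site (TSS) of any gene was at a median of 10446.5 bp (quartiles 3668 and 31517), against 1313 bp for the other gained peaks and 18384.5 bp for masked grid windows. A TSS was covered by 29 members (3.93%, interval 2.65 to 5.59), against 26.0% of the other gained peaks. Within 1 kb of a TSS lay 13.3% of members and 48.6% of the others, and within 10 kb, 360 members (48.8%, interval 45.1 to 52.5) and 70.1% of the others. The members nevertheless lay near a TSS more often than masked sequence in general, since 33.4% of masked grid windows were within 10 kb and 0.146% covered a TSS. Intergenic sequence held 54.1% of members and 31.6% of the others, introns 40.1% and 31.8%, and UTRs 3.79% and 28.6%. Coding exons held 2 members, in Akr1c19 with 153 tags and in Gm3115 with 41.5 tags. Low scores and distance went together in both sets, so the near share was also taken within 4 bins of the list by score. In the lowest bin 43.5% of 492 members (interval 39.1 to 48.0) and 38.5% of the others lay within 10 kb. In the second bin the shares were 53.0% of 183 members (interval 45.5 to 60.4) and 56.7%, and in the third 69.6% of 46 members (interval 54.2 to 82.3) and 85.0%. All 17 members of the highest bin and 97.7% of the others lay within 10 kb. The intervals of the 2 sets were apart in the third bin, where members lay near a TSS less often, and overlapped in the other bins. In the lowest and the highest bin the share of members was the higher one.

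The difference in score was largest next to a TSS. Among peaks that covered a TSS, members had a median of 209 tags (n = 29, interval 122 to 396) and the others 431. From 1 bp to 1 kb the medians were 110 tags (n = 69, interval 87 to 138) and 363, and from 1 to 10 kb 61 tags (n = 262, interval 58 to 65.5) and 113. Farther out, from 10 to 100 kb, they were 58 (n = 328, interval 53.5 to 61) and 84, and beyond 100 kb 57.5 (n = 50, interval 52 to 64.5) and 64.75. Beyond 100 kb the intervals of the medians overlapped, since that of the others ran from 61.5 to 68.5.

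**Figure D3:**
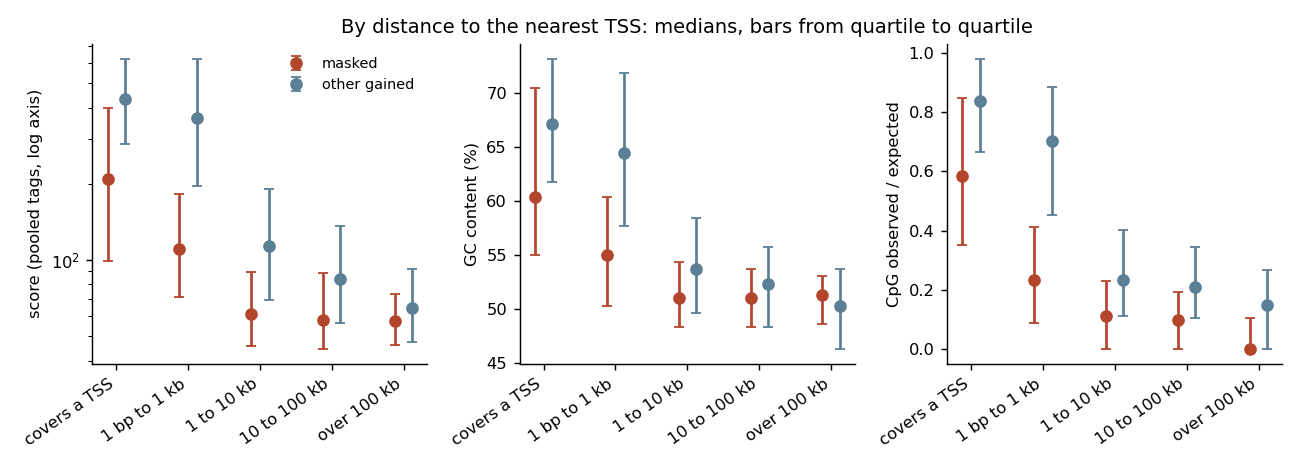
Score (pooled tags, log axis), GC content (%) and CpG observed to expected ratio of masked and other gained peaks in 5 classes of distance to the nearest TSS. Points are medians and bars run from the lower to the upper quartile. The medians of score lie at 209 and 431 tags for peaks covering a TSS and at 57.5 and 64.75 beyond 100 kb.

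Base composition followed the distance as well. The median GC content of members was 51.3% (interval 51.0 to 51.7), that of the other gained peaks 57.7% and that of masked grid windows 40.9%. Beyond 10 kb of a TSS the medians of members and others were 51.0% (interval 50.3 to 51.7) and 51.7%, so the gap of the whole list was hardly present there. Within 10 kb they were 52.0% and 61.7%. CpG dinucleotides, which are lost over time where they are methylated, were scarcer in members than in the other gained peaks. Their observed to expected ratio had a median of 0.106 in members and 0.435 in the others. Masked grid windows had 0.119 and the other grid windows 0.151, so members stood near the grid and the other gained peaks above it. Beyond 10 kb the ratio was 0.0933 in members (interval 0 to 0.101) and 0.206 in the others. The members that covered a TSS had the highest ratio, 0.584, against 0.838 in the other gained peaks at a TSS.

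Tandem repeats accounted for 90 members (12.2%, interval 9.92 to 14.8), against 1.32% of the other gained peaks and 10.4% of masked grid windows. Units of AC were found in 24 members and units of AG in 23, and each other unit in 6 or fewer. AC members had a median score of 73.25 tags and 20 of 24 lay within 10 kb of a TSS, and AG members had 66 tags and 15 of 23. The 3 highest AC members were the Nr4a3 peak with 572.5 tags, a peak with 492.5 tags that covers a TSS of Rnf220, a ubiquitin ligase gene, and one with 410 tags that covers a TSS of Tns1, which encodes the focal adhesion protein tensin 1. Among AG members, a peak over a TSS of Wipf2, a gene of an actin regulator, reached 396 tags, and the next ones, in introns of Cald1 and of the taurine transporter gene Slc6a6, had 130 and 126. All tandem members together had a median of 77.5 tags (interval 66 to 91.5) and 72.2% of them lay within 10 kb of a TSS. The 3 members with units of AGC lay within 10 kb of a TSS, and 1 of them was 147 bp from a TSS of Impact, an imprinted gene, with 193 tags.

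Of the 648 members without a tandem repeat, 418 resembled at least 1 other member over 75 bases or more at 75% identity or more, and these fell into 38 groups. Groups 1 and 2 held 288 members, or 39.0% of all (interval 35.5 to 42.6). The grid and the other gained peaks were not grouped in this way. Group 1, with 215 members on 20 chromosomes, had a median pairwise identity of 81.9%, and lay in masked runs of 248 bases (median). Its word AGGCTCCTGTCA was held by 87 of the 215 members and by 4 of the other gained peaks, and occurs 10779 times on the chromosomes, 95.7% of them wholly masked. So about 8.44 of every 1000 copies lay in a gained peak. Group 2 had a median identity of 83.7% and masked runs of 129 bases. Its word GTTACCTAGCAA was held by 49 members, 45 of them in the group, and by 5 other gained peaks. With 3579 copies on the chromosomes, 15.1 of every 1000 copies lay in a gained peak. Group 3, with 18 members, had a lower rate: its word CCACATGGTGGC occurs 62967 times, and 0.238 of every 1000 copies lay in a gained peak. Each word was chosen as the one most members of its group hold, which raises these rates. No rate for other masked sequence was taken, so the rates can be set only against each other. The reference at hand does not pair these groups with repeat families, so they carry numbers only.

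The groups had like scores. The median was 58 tags in group 1 (range 28 to 369.5, interval 54.5 to 61), 59 in group 2 (range 32 to 217.5, interval 53.5 to 67) and 68 in group 3 (range 29 to 186, interval 46 to 105.5), so the intervals overlapped. Group 6 (9 members) had the highest median of the 8 largest groups, 101 tags (interval 48.5 to 112). Members that were neither tandem nor like another member (230) had a median of 65.5 tags (interval 59.5 to 73). Within 10 kb of a TSS lay 33.5% of group 1, 39.7% of group 2, 13 of the 18 members of group 3 and all 6 of group 8. Copies of the shared words in no gained peak stood in a like order for the first 3 groups, with 28.4%, 31.1% and 59.4% within 10 kb. The 6 of group 8 included a peak of 148 tags in an intron of Gpr35 and peaks of 110 and 81.5 tags in introns of Raet1e and Ulbp1, which encode ligands of an activating receptor of natural killer cells. The 3 highest members of group 1 were in an intron 124044 bp from the nearest TSS and 216611 bp from that of Robo1, an axon guidance receptor gene (369.5 tags), 1290 bp from the pseudogene Gm3213 (260.5 tags), and 180129 bp from Gm4808 (252.5 tags). Those of group 2 lay in introns near Lrrc74b (217.5 tags), Mettl16, an RNA methyltransferase gene (203.5 tags), and the pseudogene Gm18646 (169 tags).

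**Figure D4:**
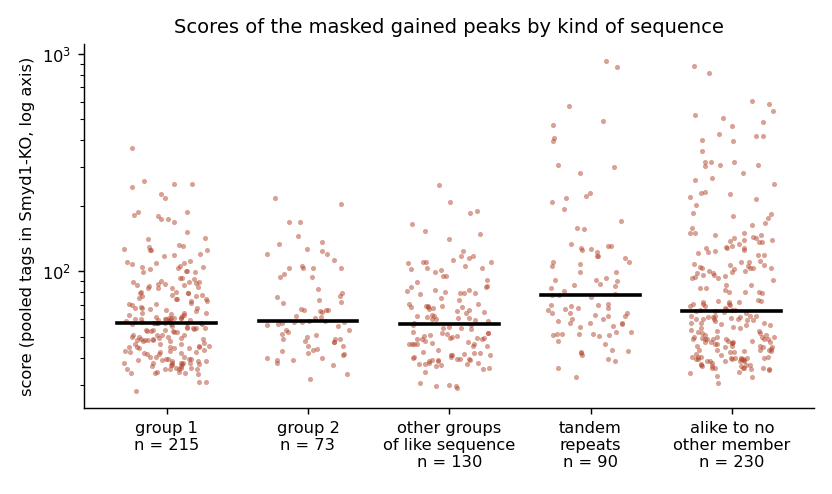
Score of each of the 738 masked gained peaks (pooled tags, log axis) by kind of sequence. Each point is a peak, spread sideways for visibility, and black lines are medians, which lie between 58 tags in group 1 and 77.5 tags in the tandem repeats. The ranges of the kinds overlap.

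Strings were searched on both strands. The GATA string AGATAA was found in 141 members (19.1%, interval 16.3 to 22.1), against 8.57% of the other gained peaks, 8.87% of all gained peaks, 8.13% of masked grid windows and 11.2% of the other grid windows. The gap was smaller away from genes: beyond 10 kb of a TSS the string was in 22.2% of members (interval 18.1 to 26.8) and 16.2% of the others (interval 15.4 to 17.1). The string holds few G and C bases, so peaks were also compared at like GC content. From 50% to under 55% GC it was in 21.1% of 279 members (interval 16.5 to 26.4), 13.8% of the others (interval 12.8 to 14.8) and 4.19% of masked grid windows. From 45% to under 50% it was in 23.7% of 207 members (interval 18.1 to 30.1), 20.1% of the others (interval 18.7 to 21.5) and 4.41% of masked grid windows. In the latter class members and others overlapped. Of 6 classes of GC content, that from 50% to under 55% was the only one in which the intervals of members and others were apart, and below 40% the order was reversed, with 3 of 17 members (17.6%, interval 3.8 to 43.4) and 24.4% of the others. Members with the string had the same median score as members without it, 61.5 tags. GGAATG was found in 12.3% of members and 10.5% of the others, and beyond 10 kb the order was reversed, with 13.5% (interval 10.2 to 17.4) and 16.1%. The GC box GGGCGG was found in 7.05% of members against 29.7% of the others and 1.11% of masked grid windows, and the CCAAT box ATTGGC in 3.66% and 9.28%. Both strings are frequent in promoters, and beyond 10 kb the sets stood closer together, with the GC box in 4.50% of members (interval 2.64 to 7.10) and 6.85% of the others and the CCAAT box in 3.97% (interval 2.24 to 6.46) and 4.79%. The TATA string TATAAA was found in 3.79% of members, 2.66% of the others and 14.9% of masked grid windows. The CTCF consensus was met by 0.949% of members (interval 0.382 to 1.94), 3.52% of the others and 0.0183% of masked grid windows. A match is a string of letters and not a measured binding site.

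The GATA string was uneven among the groups. It was in 28 of 215 members of group 1 (13%, interval 8.83 to 18.3), in 34 of 73 of group 2 (46.6%, interval 34.8 to 58.6), in 9 of 10 of group 5 and in none of the 18 of group 3, for which the interval reaches 18.5%. In group 5 the string is part of the word the group shares, so every match of that word holds it, also the 1376 in no gained peak, of which 35.1% lie in a mostly masked window. GGAATG was present in 5 of the 10 members. Group 7 (7 members) had the GATA string in 4 and GGAATG in 5.

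For groups 1 to 3, copies of the shared word inside and outside the gained list were then set side by side. A window as wide as a peak was centred on every copy, and of the windows in no gained peak 93.8%, 86.5% and 98.4% were mostly masked. For group 2, 34 of the 49 copies in a masked gained peak had a GATA string in that window (69.4%, interval 54.6 to 81.7), against 1016 of the 3525 copies in no gained peak (28.8%, interval 27.3 to 30.3). The place of the string recurred: it began 6 bases after the word in 20 of the 49 copies (40.8%, interval 27 to 55.8) and in 396 of the 3525 (11.2%, interval 10.2 to 12.3), a place that was chosen as the most frequent one in the members. Whether reads could be placed on each copy was not measured, so copies were also split by how repeated their sequence is. Among copies with at most 50% of their 36-base words repeated, the string was in 26 of 35 in a masked gained peak (74.3%, interval 56.7 to 87.5) and in 539 of 2196 in none (24.5%, interval 22.8 to 26.4). Among the more repeated copies it was in 8 of 14 (57.1%, interval 28.9 to 82.3) and 477 of 1329 (35.9%), where the intervals overlapped. For group 1 the shares were 2 of 87 copies (2.30%, interval 0.280 to 8.06) and 202 of 10688 (1.89%), with no difference beyond counting error. For group 3 they were 0 of 10 (interval up to 30.8%) and 1.40%. For groups 4 to 8 only 18% to 35.1% of the windows around matches in no gained peak were mostly masked. Most such matches therefore need not be copies of the same element, so their shares do not compare copies. In group 6 the string was in 4 of 7 matches in a masked gained peak (interval 18.4 to 90.1). In no gained peak it was in 16.1% of matches (interval 14 to 18.3). For group 7 the values were 5 of 6 (interval 35.9 to 99.6) and 19.1% (interval 16.7 to 21.6). These intervals were apart, those of groups 4 and 8 overlapped, and the word of group 5 itself holds the string. In distance to genes, 40.8% of the group 2 copies in a masked gained peak (interval 27 to 55.8) and 31.1% of those in no gained peak were at most 10 kb from a TSS.

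**Figure D5:**
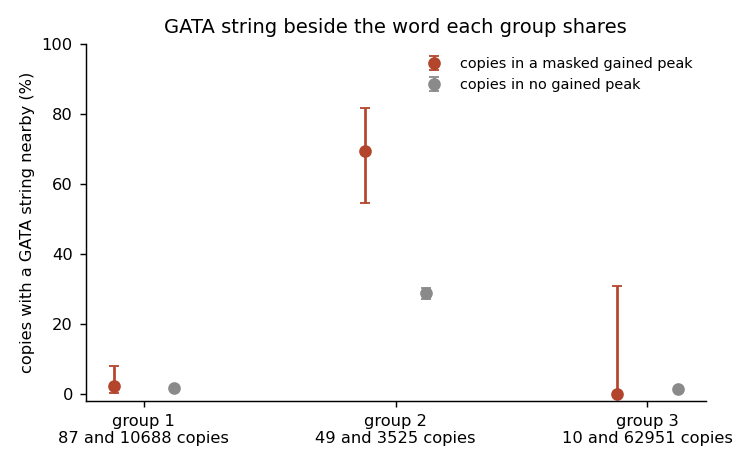
Share of copies with the GATA string in a window as wide as a peak, centred on the shared word (%, vertical axis), for the words of groups 1, 2 and 3, in copies that lie in a masked gained peak and in copies in no gained peak. Points are shares, bars are 95% exact intervals and the numbers of copies are given below. The shares of group 2 are 69.4% and 28.8%, and those of groups 1 and 3 overlap.

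The highest-scoring members were not typical of the set. Of the 10 highest, 8 lay within 3 kb of a TSS and none belonged to group 1 or 2. They were a peak in an intron of Gipc2 with 930.5 tags, a peak 6 bp from a TSS of the striatin family gene Strn3 with 875.5, an AGGG repeat 37 bp from a TSS of Ssbp2, a single-stranded DNA binding protein gene, with 871.5, and a peak 2226 bp from 1700015G11Rik with 813.5. These were followed by peaks over a TSS of Ticam1, an adaptor of Toll-like receptors (608 tags), 3297 bp from Sertad1 (590 tags), at Nr4a3 (572.5 tags), in an intron of the diacylglycerol kinase gene Dgkz (543 tags), and over a TSS of Brd3os (524 tags) and of Wdr77 (504.5 tags). The GC content of these 10 ran from 45% at Gipc2 to 76.5% at Ssbp2. Beyond 10 kb of any TSS the highest members after the group 1 peak with 369.5 tags lay near I730030J21Rik (356.5 tags), 15608 bp from 4933406J10Rik (317 tags), and 21087 bp from Pck1, which encodes a key enzyme of gluconeogenesis (268 tags).

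Genes next to members differed in kind from those next to the other gained peaks. The nearest TSS was that of a protein-coding gene for 317 members (43.0%, interval 39.3 to 46.6), against 70.1% of the others. It was that of a processed pseudogene, an intronless copy of a messenger RNA, for 170 members (23.0%, interval 20 to 26.2) and 7.12% of the others. A long intergenic non-coding RNA was nearest for 85 members (11.5%, interval 9.30 to 14) and 8.46% of the others. In masked grid windows the shares were 33.5% for protein-coding genes, 25% for processed pseudogenes and 13.4% for these RNAs. For pseudogenes and these RNAs members thus stood near masked sequence in general. For protein-coding genes they stood between masked grid windows and the other gained peaks. Members nearest a protein-coding gene had a median score of 67 tags, those nearest a pseudogene 60 and those nearest a long non-coding RNA 59.5. Members with high scores next to non-coding genes were a peak 17 bp from CR974462.6 with 467 tags, one 203 bp from Sp3os with 420 tags, and one 9603 bp from Malat1, an abundant nuclear RNA, with 318.5 tags. One member with 176 tags lay 171 bp from Rnu3b2, a gene of the U3 small nucleolar RNA.

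Within 10 kb of a TSS, 236 of 21938 protein-coding genes had a masked gained peak (1.08%), while 12995 (59.2%) had another gained peak. Of the 236, 161 had both kinds and 75 had a masked one alone, and 5 had more than 1 masked gained peak. The lists of genes that the study and the members call for held 0 to 2 genes with a masked gained peak each. Among 22 cardiac regulators the 1 gene was Mef2c, a transcription factor of heart and muscle development, whose TSS was covered by a member with 209 tags and a CpG ratio of 1.04, while 20 of the 22 had another gained peak. Among 26 sarcomere and calcium genes it was Cacna1c, the L-type calcium channel of heart muscle, with a group 1 peak of 99 tags at 8377 bp, beside 24 with another gained peak. Among 22 hypoxia genes it was Hif1a, the oxygen-regulated transcription factor, with a fully masked peak of only 29 tags at 4771 bp, beside 21 with another gained peak. None of 24 genes of glycolysis and glucose transport, of 26 of angiogenesis and endothelium and of 38 of repeat silencing had a masked gained peak, whereas 24, 15 and 32 had another gained peak. Impact was the 1 of 36 imprinted and retroelement-derived genes, and 2 of 394 zinc finger genes with a Zfp symbol had a member, against 296 with another gained peak. The share of each list was not apart from the 1.08% of all protein-coding genes. For the lists without a member the exact upper limits were 14.2%, 13.2% and 9.25%, and for those with 1 gene the shares ran from 2.78% to 4.55%, with lower limits from 0.0703% to 0.115%. The zinc finger genes stood at 0.508% (interval 0.0615 to 1.82).

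Members also stood more alone. The nearest other gained peak was at a median of 39874 bp, against 19769 bp for the other gained peaks. Within 10 kb, 144 members (19.5%, interval 16.7 to 22.6) and 31.9% of the others had another gained peak. Of these 144 members, 45 scored above that neighbour (31.2%, interval 23.8 to 39.5), and in 8 the neighbour was itself masked. Among the other gained peaks the share that scored above the neighbour was 49.6%. Members score lower as a set, so their lower share is not a finding separate from that.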

How the data were processed

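ATAC-seq was performed on 2 WT and 2 Smyd1-KO libraries. The authors aligned reads to mm10 with BWA-MEM, combined the libraries of a genotype, found peaks with HOMER 4.10.3 and kept those at least 2-fold higher in one genotype. The deposited value is a signal, the pooled tags per peak on a scale that is not stated and differs between the lists, with no counts per library, so depth per library is unknown and no test over replicates was made. Treatment of duplicate and multiply placed reads is not given in the sources used here.

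Masked bases were read from the RefSeq GRCm38.p6 sequence, whose chromosomes are those of mm10. How it was masked is not given in the sources used here, and masking from another source could give other members. TSSs, genes and UTRs came from GENCODE M21 with all transcripts, and distances run from the nearer edge of a peak. Words of 36 and 20 bases were counted on both strands. A tandem repeat was the best stretch of period 1 to 6. Members without one were grouped by single linkage (blastn 2.17.0, at least 75 bases, 75% identity), and likeness to an annotated element needed 50 bases. Medians have exact order-statistic 95% intervals and shares exact Clopper-Pearson 95% intervals (scipy 1.17.1). Functions were tested on simulated data. Members, gene lists and motifs were chosen with earlier results of these data known, and the comparison of element copies after values were seen. Named peaks were the highest-scoring 10 members, 5 beyond 10 kb, 3 per large sequence group, tandem class or nearest gene type, and those at listed genes. The alternatives tried were other masking thresholds, TSS sets, distances, score and uniqueness filters, autosomes alone, merged peaks, and a grouping at 80% identity that was added after the data were seen. The sequences of some named members are not reported here.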

Additional observations from a re-analysis of the deposited data

How the results depend on the processing

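No paired analysis was possible because the deposited lists combine the libraries of a genotype, and for the same reason no replicate could be left out. In none of the 20 alternatives that give values for members and other gained peaks did the order of both change, and 9 of all 26 alternatives stayed within the interval of the reported value. The masked share was 0.823% at 90% masking, 35.8% with any masked base, 0.496% at scores at or above the median of the list and 1.20% with at most 10% repeated 36-base words. The share within 10 kb of a TSS was 39.6% at 90% masking, 76.6% at the higher scores, 52.5% with few repeated words and 28.9% for protein-coding TSSs, and 13.3% and 22.1% lay within 1 and 3 kb. The median score was 68.75 tags within and 58 beyond 10 kb, 57.75 at 90% masking and 65.5 with few repeated words. The median GC content was 52.0% within 10 kb, 50.3% at 90% masking and 56.7% at the higher scores. At 80% identity, a setting chosen after seeing the data, 373 members fell into groups and the largest held 212 and 67. The masking has no stated method, no repeat annotation was used, and without values per library no difference between the genotypes can be set against its spread.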

Other observations

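The members were spread over all chromosomes but not evenly. Chromosome 3 held 70 members, 5.21% of its gained peaks (interval 4.08 to 6.53), and chromosome 11 held 33, or 1.78% (interval 1.23 to 2.49), while the masked share of grid windows was 31.2% and 25.4%. Of the 7 gained peaks on chromosome Y, 3 were masked, against 97% of its grid windows.

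The 36 masked peaks of the WT-enriched list had a median score of 37.9 scaled tags in the pooled WT libraries and a median GC content of 46.3%. Scores of this list do not keep to steps of 0.5, so its scale differs from that of the gained list and scores are not compared between them. The highest, with 941.3 tags, lay 325 bp from Gm10720 near the start of chromosome 9, in a window with 82.5% of its 36-base words repeated. None of the 36 held the GATA string, which allows a share of up to 9.74%.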
